A study of Mus musculus with 6 samples.

Results

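The common gamma chain family was followed through 10 genes, fixed by name: the receptor chains Il2rg, Il2rb, Il2ra, Il4ra, Il7r, Il21r and Il15ra, the kinase Jak3, and the cytokines Il7 and Il15. They were read by 23 of the 56599 probes used, chosen by the gene name in the array files or by the current symbol of the probe's RefSeq accession, and all 10 were among the 22741 genes tested. Of those 23 probes, 20 passed the filter (signal well above background on 3 or more of the 6 arrays); the other 3 (both further probes of Il7 and 1 of Il7r) were well above background on no array.

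RNA came from the renal cortex of male diabetic mice, with 3 samples from C3aR-/- mice, which lack the receptor for the complement fragment C3a, and 3 from wild-type (WT) mice. All 6 samples share the C57BL/6 strain and the diabetes: from 8 weeks of age the mice ate a diet with 60% of calories from fat, after 4 weeks they received streptozotocin, a toxin of pancreatic beta cells, at 60 mg/kg on 3 days, and they were killed 26 weeks later. How the C3aR-/- allele was built is not stated in the labels, and non-diabetic mice of either genotype were not analysed here. The labels do not say that replicates were separate animals, so the p-values cover only variation among these 6 samples, which may be technical.

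The common gamma chain, encoded by Il2rg, is a shared subunit of the receptors for IL-2, IL-4, IL-7, IL-9, IL-15 and IL-21. It pairs with private chains that decide which cytokine is bound, and it carries the kinase JAK3, which with JAK1 activates STAT proteins, mainly STAT5, in lymphocytes. T cells and natural killer (NK) cells depend on these cytokines for survival and growth, while IL-7 and IL-15 themselves come largely from stromal, epithelial and myeloid cells, and IL-15 is handed over while bound to IL-15Rα.

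Between 58.6% and 63.0% of probes were well above background on each array. All 10 proximal tubule markers and all 11 markers of other cortical cells were tested, so the defining markers of renal cortex were present. Of 8 perirenal fat and adrenal markers 4 were tested, and their summed signal was 0.645 to 0.841 in C3aR-/- and 0.644 to 0.89 in WT samples. C3ar1, the targeted gene, read -4.10, -4.95 and -4.69 in C3aR-/- and -2.96, -3.86 and -3.62 in WT samples, a difference of -1.10 ± 0.30 (limma SE; adjusted p = 0.931). The C3ar1 groups did not overlap, although 2 of 3 C3aR-/- arrays still read the probe well above background; whether its position (mm9 chr6:122798222-122798281) is inside the deleted part is not stated in the labels. Under another background correction (normexp) the C3ar1 difference was -0.39. WT replicate 1 and C3aR-/- replicate 2 were the arrays farthest apart on principal component 1, which held 41.3% of the variance.

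Levels are log2 signals relative to the 75th percentile of the array, so 0 is the percentile itself and a negative level is a dimmer probe. A level describes a probe on different arrays and does not rank genes, because probes bind with different strength. Differences are C3aR-/- minus WT with limma standard errors over 3 arrays a group, and p-values were adjusted over all 22741 genes by Benjamini-Hochberg.

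Il2rb, Il2rg and Il7r read lower in C3aR-/- cortex, at 0.528, 0.615 and 0.405 times the WT signal, with no overlap between groups. The other 4 receptor genes, Jak3 and both cytokines differed less in relation to their error. No gene passed the adjusted threshold in limma (0 of 22741, 0.0%), so each of these is a measured difference with its error and not a call. At an unadjusted p under 0.05, 3 of the 10 members passed, against 1111 of all genes (4.89%), and all 3 read lower, which 609 of all genes (2.68%) did. Groups did not overlap for 4 members (9.84% of all genes), 3 of them lower (4.19%) and 1, Il15, higher in C3aR-/- (5.65%). In all, 8 of 10 members read lower, against 43.4% of all genes, and the median difference was -0.39 for the members and 0.026 for all genes. The 8 include Il7, whose sign turned in 3 alternatives, Jak3, whose sign turned in 2, and Il2ra, whose sign turned in 1. Jak3 and Il21r each also had another probe that read higher. Over all alternatives the count ran from 6 in slide row 2 to 9 without C3aR-/- replicate 2. In whole cortex, fewer cells of a type and less RNA per cell cannot be told apart.

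**Figure D1:**
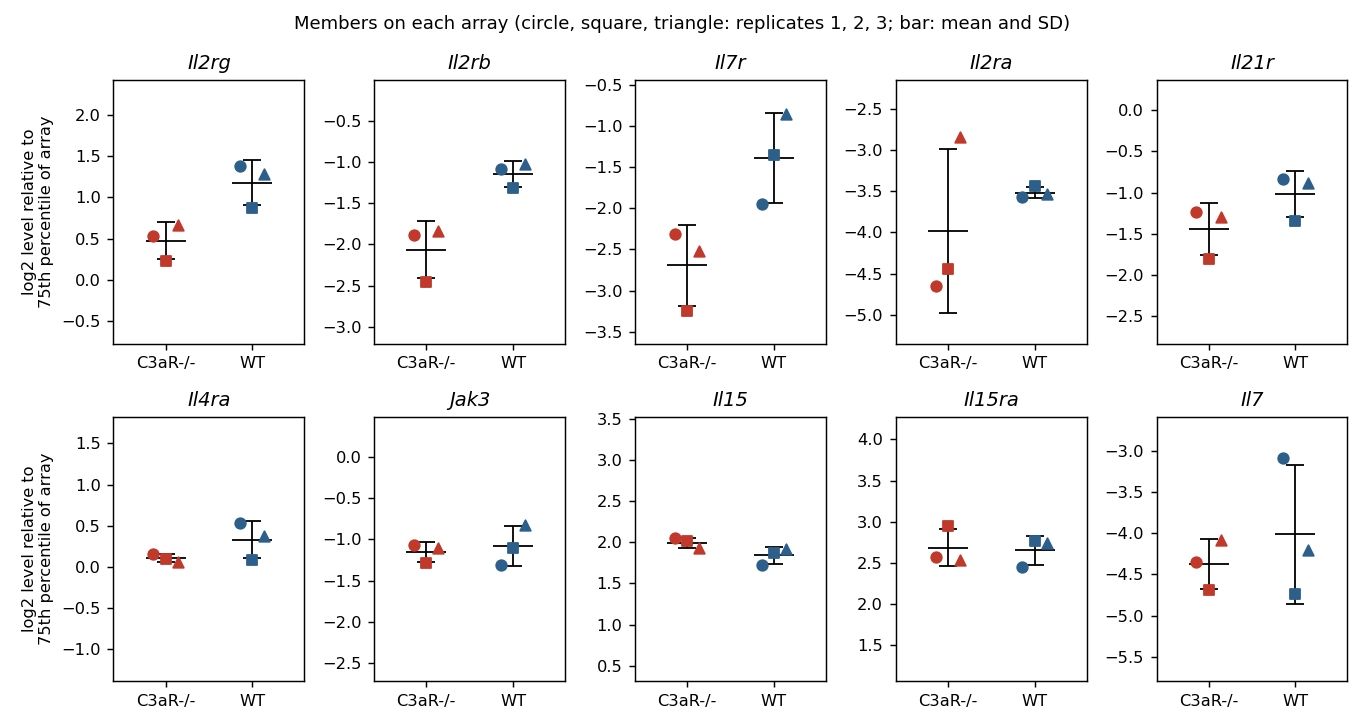
Log2 level (relative to each array's 75th percentile) of the 10 members in C3aR-/- (left) and WT (right) samples, 1 panel a gene, each point 1 array and each bar the mean and SD of 3 arrays. Il2rb, Il2rg and Il7r are lower in every C3aR-/- sample than in every WT sample, Il15 is higher in every C3aR-/- sample, and the other 6 genes overlap.

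Il2rg, the shared chain, has 1 probe on the array (mm9 chrX:98459802-98459860). It read 0.53, 0.23 and 0.67 in the C3aR-/- samples and 1.38, 0.87 and 1.29 in the WT samples. The highest C3aR-/- sample lay below the lowest WT sample. The group means were 0.48 ± 0.22 in C3aR-/- and 1.18 ± 0.27 in WT (SD, n = 3 each), and the limma difference was -0.70 ± 0.18 (adjusted p = 0.931, unadjusted p = 0.00743). The slide has 2 rows that both hold each genotype, and the difference was -0.70 in row 1 (2 arrays of each) and -0.71 in row 2 (C3aR-/- replicate 3 and WT replicate 1).

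Il2rb encodes the beta chain that the IL-2 and IL-15 receptors share, and which together with the gamma chain passes on the signal of both. It was read by 2 probes. On the brighter probe (mm9 chr15:78309771-78309830) the C3aR-/- samples read -1.89, -2.46 and -1.84, and the WT samples -1.08, -1.32 and -1.03. Every C3aR-/- value was below every WT value. The means were -2.06 ± 0.34 and -1.14 ± 0.16 (SD, n = 3 each), and limma gave -0.92 ± 0.19 (adjusted p = 0.920, unadjusted p = 0.00255), the smallest p among the members. On the other probe (mm9 chr15:78311109-78311168) the C3aR-/- samples read -2.56, -3.06 and -2.59 against -1.62, -1.93 and -1.16 in WT, a difference of -1.17 ± 0.23, or 0.445 times the WT signal. Both probes separated the groups, and the lowest C3aR-/- sample was replicate 2 on both.

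Il7r encodes the alpha chain of the IL-7 receptor, which naive and memory T cells carry. Its usable probe (mm9 chr15:9436822-9436881) read -2.31, -3.25 and -2.52 in C3aR-/- and -1.95, -1.36 and -0.86 in WT samples. The groups did not overlap, but the nearest values (C3aR-/- replicate 1 and WT replicate 1) lay close together. The means were -2.69 ± 0.49 and -1.39 ± 0.55 (SD, n = 3 each), and the difference of -1.30 ± 0.35 (limma, adjusted p = 0.931, unadjusted p = 0.00828) had the largest size among the 10 members. It was -1.67 in slide row 1 and -0.57 in slide row 2.

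Promoters of both genes whose groups separated most and for which a reference window was at hand are printed here, from RefSeq on GRCm38.p6, 250 bases up to the start site, minus strand, 5′ to 3′. Capitals mark the match found in each: the ETS-type core CGGAAG in Il2rg, 16 bases upstream of the start, chosen after the promoters were seen, and the STAT-type motif TTCNNNGAA in Il7r, 142 bases upstream.
Il2rg promoter, chrX:101268256-101268505: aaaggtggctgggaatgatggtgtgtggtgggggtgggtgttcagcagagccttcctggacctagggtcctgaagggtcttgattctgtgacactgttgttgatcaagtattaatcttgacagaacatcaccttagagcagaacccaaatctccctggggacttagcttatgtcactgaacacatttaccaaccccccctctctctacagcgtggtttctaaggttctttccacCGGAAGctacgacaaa
Il7r promoter, chr15:9529877-9530126: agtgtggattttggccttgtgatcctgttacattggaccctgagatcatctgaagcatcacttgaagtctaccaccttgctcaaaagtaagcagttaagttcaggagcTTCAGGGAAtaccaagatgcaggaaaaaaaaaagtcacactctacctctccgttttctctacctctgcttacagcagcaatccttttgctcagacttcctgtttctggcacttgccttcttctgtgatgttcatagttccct
Windows of 300 bases (250 before and 50 after the start) were searched on both strands. TTCNNNGAA was in 8.3% of the 32851 windows of all genes and in 1 of the 7 member genes with a window, Il7r. CGGAAG was in 16.9% of windows and in 2 member genes, Il2rg and Il15ra (103 bases upstream), and GAAA, any 2 bases, GAAA (an interferon-response type motif) was in 3.44% of windows and in no member gene. A match describes letters and not a bound site.

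Il2ra, the IL-2 receptor alpha chain that activated and regulatory T cells carry, had probes that did not agree across samples. The brighter one, for a transcript other than the RefSeq one (mm9 chr2:11570205-11570264), read -4.65, -4.45 and -2.84 in C3aR-/- and -3.57, -3.44 and -3.54 in WT samples. The C3aR-/- samples straddled the WT samples, with replicate 3 above all of them. The difference was -0.46 ± 0.46 (limma, adjusted p = 0.931), -1.03 without C3aR-/- replicate 3, -0.13 without C3aR-/- replicate 1, and 0.73 in slide row 2, which holds replicate 3. The RefSeq probe (mm9 chr2:11614744-11614803), 44539 bases downstream, read -4.31, -4.59 and -4.86 in C3aR-/- and -3.94, -4.58 and -3.52 in WT samples, and C3aR-/- replicate 3 was the lowest of all 6 there. Its difference was -0.58 ± 0.29, and it read -0.05 under another background correction (normexp).

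Il4ra, the alpha chain of the IL-4 and IL-13 receptors, which many cell types carry, read 0.16, 0.10 and 0.06 in C3aR-/- and 0.53, 0.09 and 0.37 in WT samples (mm9 chr7:132721137-132721196). WT replicate 2 lay among the C3aR-/- values. The limma difference was -0.23 ± 0.13 (adjusted p = 0.931), -0.12 without WT replicate 1 and -0.34 without WT replicate 2, and its other probe (mm9 chr7:132712550-132712609) gave -0.24 ± 0.21. Il21r, the private chain of the IL-21 receptor on B, T and NK cells, read -1.23, -1.80 and -1.30 in C3aR-/- and -0.83, -1.34 and -0.89 in WT samples on its brighter probe (mm9 chr7:132776644-132776703), a difference of -0.42 ± 0.21 (limma, adjusted p = 0.931) and -0.24 without C3aR-/- replicate 2. Its other probe (mm9 chr7:132774961-132775020) read -3.82, -3.13 and -3.65 against -3.57, -3.64 and -4.09, a difference of 0.23 ± 0.23. The 2 Il21r probes thus differed in sign.

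Il15ra encodes the chain that binds IL-15 and presents it to neighbouring cells, and it is made by epithelial and myeloid cells as well as lymphocytes. Its brightest probe (mm9 chr2:11655416-11655475) carries a TG repeat, printed below in capitals within a 30-base stretch, of 8 units, and 111 of the 56599 probes have as many. Whether it binds other transcripts was not tested.
Il15ra brightest probe, stretch: tatatgtaTGTGTGTGTGTGTGTGtatgta
It read 2.57, 2.95 and 2.54 in C3aR-/- and 2.45, 2.77 and 2.74 in WT samples, a difference of 0.04 ± 0.16 (limma, adjusted p = 0.983), with the groups overlapping. Another probe spans an exon junction (mm9 chr2:11645753-11652254) and holds no such repeat.
Il15ra exon-spanning probe: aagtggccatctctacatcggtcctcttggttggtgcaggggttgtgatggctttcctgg
It read -1.19, -1.44 and -1.22 in C3aR-/- and -1.42, -1.59 and -1.64 in WT samples, a difference of 0.27 ± 0.12. Only C3aR-/- replicate 2 lay within the WT range. The third probe (mm9 chr2:11654809-11654868) gave 0.15 ± 0.18.

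Jak3, the kinase that binds the gamma chain, had 3 probes. The brightest (mm9 chr8:74214085-74214144) is annotated to both Jak3 and the neighbouring Insl3, whose shares of the signal cannot be told apart, and the next (mm9 chr8:74210801-74210860) to Jak3 alone. Both are printed to show which stretches were read.
Jak3 and Insl3 probe: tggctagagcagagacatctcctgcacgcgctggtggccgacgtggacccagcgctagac
Jak3 probe: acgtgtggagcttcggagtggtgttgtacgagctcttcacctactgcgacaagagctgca
The shared probe read -1.07, -1.29 and -1.10 in C3aR-/- and -1.31, -1.10 and -0.83 in WT samples, a difference of -0.07 ± 0.15 (limma, adjusted p = 0.958). The Jak3 probe read -1.22, -1.32 and -1.11 in C3aR-/- and -0.96, -1.21 and -1.10 in WT samples, a difference of -0.13 ± 0.12. The groups overlapped on both, and the third probe (mm9 chr8:74204097-74204161) gave 0.06 ± 0.14. Of these 3 differences, only that of the probe annotated to Jak3 alone exceeded its standard error.

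**Figure D2:**
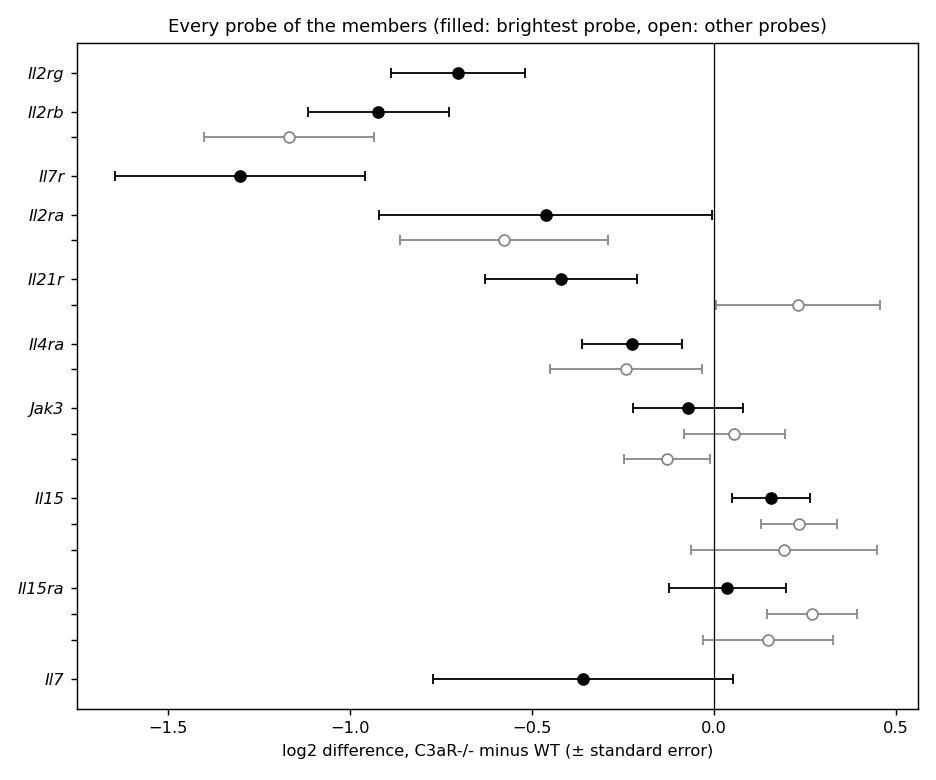
Difference C3aR-/- minus WT in log2 signal for each of the 20 usable probes of the members, points with limma standard errors over 3 arrays a group. 12 probes lie below 0 and 8 above, and the Il2rb probes lie together while the Il21r probes lie on opposite sides of 0.

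Il15, a cytokine that supports NK and memory CD8 T cells and that renal tubular cells make, read 2.05, 2.01 and 1.93 in C3aR-/- and 1.73, 1.87 and 1.92 in WT samples (mm9 chr8:84855613-84855672). Each C3aR-/- sample was above each WT sample, by a narrow margin between C3aR-/- replicate 3 and WT replicate 3. The limma difference was 0.16 ± 0.10 (adjusted p = 0.931, unadjusted p = 0.167), 1.11 times the WT signal. A neighbouring probe (mm9 chr8:84855813-84855872) read 1.09, 1.08 and 1.0 in C3aR-/- and 0.75, 0.80 and 0.93 in WT samples, again without overlap, a difference of 0.23 ± 0.10. The third, for another transcript (mm9 chr8:84862385-84862444), overlapped and gave 0.19 ± 0.26. All 3 Il15 probes read higher in C3aR-/- cortex, with none past the threshold.

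Il7, the stromal cytokine that T cells need, was near the limit of detection. Its usable probe (mm9 chr3:7573196-7573255) was well above background on all 3 C3aR-/- and 2 of 3 WT arrays. It read -4.35, -4.69 and -4.08 in C3aR-/- and -3.09, -4.74 and -4.21 in WT samples. WT replicate 1 alone stood above the rest, and the difference was -0.36 ± 0.42 (limma, adjusted p = 0.931), 0.10 without that sample, so no direction is given for Il7.

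The ligands not among the members were mostly undetected. Il2, Il4, Il9 and the receptor chain Il9r were well above background on no array, which leaves their levels unknown here. Il21 was read well above background on all 3 C3aR-/- arrays and 1 WT array by 1 probe, at -4.79, -4.71 and -4.95 in C3aR-/- against -5.25, -5.05 and -5.04 in WT samples. The Il21 groups did not overlap, but the gene passed the filter through the C3aR-/- arrays and most WT arrays gave no level clear of background, so no size of difference is given. Its other probe was well above background on 1 WT array only and gave no second reading.

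Of 30 further genes of the pathway, 24 were tested, 14 read lower (43.4% of all genes did) and 10 higher, and their median difference was -0.016. At an unadjusted p under 0.05, 4 passed (4.89% of all genes), and only 2 of these, Pim1 and Socs3, were well above background on all 6 arrays. Foxp3, the master regulator of regulatory T cells, read -5.82, -6.13 and -4.95 in C3aR-/- against -4.49, -4.92 and -4.05 in WT samples. Only 1 C3aR-/- and 2 WT arrays read Foxp3 well above background, and its difference was -1.15 on this scale but -0.19 with normexp, so its size is not established. Pim1, a survival kinase that STAT5 induces, read 0.98, 1.12 and 1.32 in C3aR-/- against 1.49, 1.42 and 1.62 in WT samples, a difference of -0.37 ± 0.12 (limma, adjusted p = 0.931). Socs3, a feedback inhibitor of cytokine signalling, read 0.91, 0.21 and 0.65 in C3aR-/- against 1.69, 0.78 and 1.45 in WT samples, a difference of -0.72 ± 0.28 (limma, adjusted p = 0.931). The groups of Pim1 and Foxp3 did not overlap, Foxp3 by a narrow margin, those of Socs3 did, and the fourth gene was Il21. Socs1, another feedback inhibitor, had the third largest difference of the 24, -0.68 ± 0.38 (limma, adjusted p = 0.931).

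**Figure D3:**
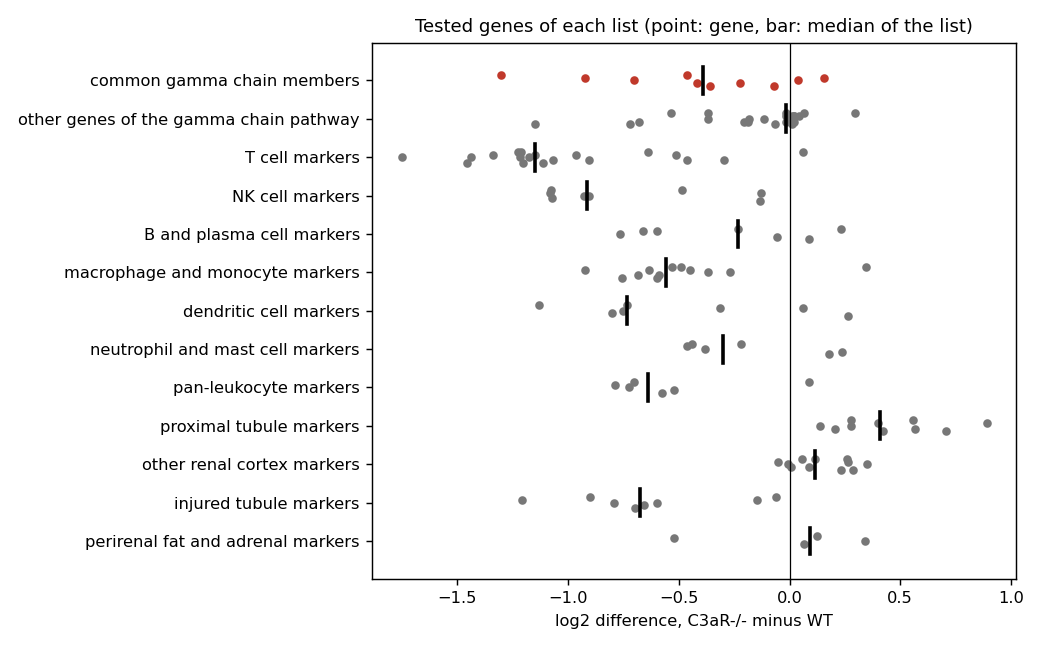
Log2 difference C3aR-/- minus WT of each tested gene of the marker lists and the members, 1 row a list, points 1 gene each and the bar the list median. T cell and NK cell lists lie mostly left of 0, and the proximal tubule list mostly right of it.

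Most tested markers of T cells, NK cells, macrophages and leukocytes in general read lower in C3aR-/- cortex, with none past the adjusted threshold in limma. Of all genes, 43.4% read lower and 4.89% had an unadjusted p under 0.05 in limma. Of 19 T cell markers tested of 20 (Cd27 was not well above background on any array), 18 read lower, with a median of -1.15 and 16 at an unadjusted p under 0.05 (all genes 4.89%). Their summed signal was 6.13 to 8.5 times the 75th percentile in C3aR-/- and 10.6 to 15.5 in WT samples, without overlap. With normexp those 18 markers also read lower, but by less, from -0.13 (Cd8a) to -1.12 (Cd2). Cd6, a T cell surface receptor, differed by -1.22 ± 0.21. Sh2d1a, an adaptor in T and NK cells, was well above background on all 3 WT arrays and no C3aR-/- array. It thus passed the filter through the WT arrays alone. Its difference was -1.75 on this scale but -0.44 with normexp, so its size is not established. All 8 NK markers tested of 10 read lower (median -0.92), 4 of them at an unadjusted p under 0.05, with summed signals of 1.35 to 1.79 in C3aR-/- and 2.03 to 2.92 in WT samples. Of the 8, Gzma (-0.135) and Prf1 (-0.128, or 0.014 with normexp) differed by less than their standard errors. Klrb1c was well above background on only 1 of 3 C3aR-/- arrays. Ncr1, a defining NK receptor, was not well above background on any array. Klrd1, an NK receptor subunit, differed by -1.08 ± 0.20, and by -0.55 with normexp. Eomes, a transcription factor of NK and CD8 T cells, was well above background on only 1 of 3 C3aR-/- arrays, and its difference was -0.93 on this scale but -0.062 with normexp. Macrophage and monocyte markers read lower in 11 of 12, 5 at an unadjusted p under 0.05 (median -0.56; Lyz2 -0.92 ± 0.21, C1qa -0.69 ± 0.22). They summed to 40.0 to 55.4 in C3aR-/- and 60.7 to 88.6 in WT samples. Lyz2 gave the largest part of these sums, at 4.47, 4.14 and 4.57 in C3aR-/- and 5.41, 4.94 and 5.61 in WT samples. The gap between the sums thus leans on that gene. Pan-leukocyte markers read lower in 5 of 6 (median -0.64; Laptm5 -0.52 ± 0.16), at 12.9 to 18.8 in C3aR-/- and 19.7 to 27.9 in WT samples. Singled out after their values were seen, 3 genes of these lists read higher: the macrophage receptor Mertk (0.35 ± 0.11, groups not overlapping, limma adjusted p = 0.931), Ptprc (0.09 ± 0.14) and Cd4 (0.06 ± 0.13). The part of these cells in the receptor differences was not tested.

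Among the other lists, B and plasma cell markers read lower in 5 of 7 tested of 10 (median -0.23; Cd79b -0.66 ± 0.15). They summed to 1.2 to 2.33 in C3aR-/- and 1.53 to 2.31 in WT samples, overlapping. These sums varied with Jchain, which read 0.35, -1.76 and -1.24 in C3aR-/- and -1.04, 0.18 and 0.0 in WT samples. Dendritic cell markers read lower in 5 of 7 tested of 8 (median -0.74; Itgax -0.80 ± 0.18, Clec9a -0.75 ± 0.18, or -0.37 with normexp). Their sum, 40.4 to 53.7 in C3aR-/- and 40.7 to 43.1 in WT samples, came mostly from Siglech. Siglech read 5.28, 5.70 and 5.70 in C3aR-/- and 5.30, 5.35 and 5.24 in WT samples, so the sum does not describe the list. Neutrophil and mast cell markers read lower in 4 of 6 tested of 9 (median -0.30). All 8 injured tubule markers read lower (43.4% of all genes did), 3 at an unadjusted p under 0.05 in limma (4.89% of all genes; median -0.68; Sox9 -0.60 ± 0.10). Their summed signals overlapped, at 436 to 514 in C3aR-/- and 509 to 603 in WT samples. These sums came mostly from Spp1 and Clu, whose differences were small (-0.062 and -0.145). WT replicate 1 read highest of all arrays for each injured tubule marker. Havcr1 read 4.98 there, 2.54 and 2.76 in the other WT samples, and 2.80, 1.28 and 3.50 in C3aR-/- samples. Krt20 read 5.05 there, 3.20 and 3.44 in the other WT samples, and 3.45, 2.39 and 3.89 in C3aR-/- samples. Sox9 varied little among WT samples, at -0.01, -0.10 and -0.13, against -0.60, -0.62 and -0.82 in C3aR-/-. All 10 proximal tubule markers read higher, none at an unadjusted p under 0.05 in limma (median 0.41). Their sums also overlapped, at 910 to 1320 in C3aR-/- and 541 to 1050 in WT samples. WT replicate 1 read lowest of all arrays for each of these markers. Its sum was 541, against 1050 and 988 in the other WT samples, so the higher reading leans on that sample. Other cortical markers had a median of 0.11.

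**Figure D4:**
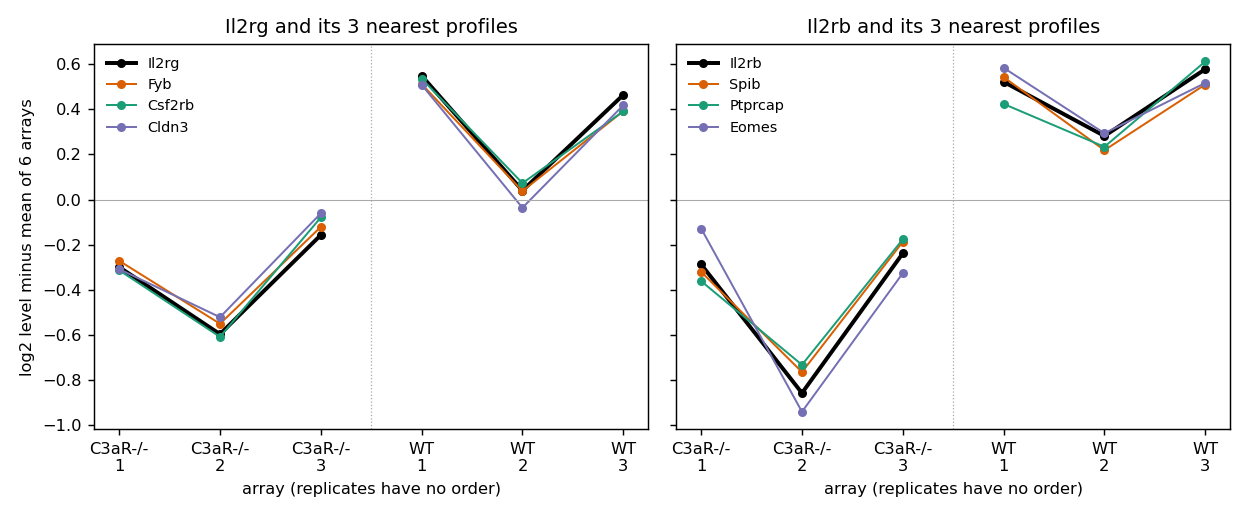
Log2 level centred on each gene's own mean over the 6 arrays for Il2rg, Il2rb and the 3 genes nearest to each by root mean square difference, C3aR-/- arrays left of WT arrays. Each of the 8 profiles is lower on every C3aR-/- array than on every WT array, with replicate 2 the lowest within each group. The nearest genes were chosen on these same arrays, so their likeness follows from the choice.

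Profiles of the genes tested were compared over the 6 arrays by the root mean square difference of centred log2 levels. Genes named only as a clone, locus, interval, predicted gene or probe were left out. Those most like Il2rg were Fyb (0.0422), Csf2rb (0.0465) and Cldn3 (0.064). Fyb is an adaptor of T cell receptor signalling, Csf2rb the beta chain shared by the GM-CSF, IL-3 and IL-5 receptors, and Cldn3 a tight junction claudin. Their differences were -0.63, -0.67 and -0.59. For Il2rb the nearest were Spib (0.0597), Ptprcap (0.0796) and Eomes (0.0889), with differences of -0.85, -0.85 and -0.93, which were -0.28, -0.71 and -0.062 with normexp. These genes were chosen for likeness on these same 6 arrays, so their similar differences follow from the choice. Likeness over 6 arrays describes these arrays and says nothing of shared control.

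**Figure D5:**
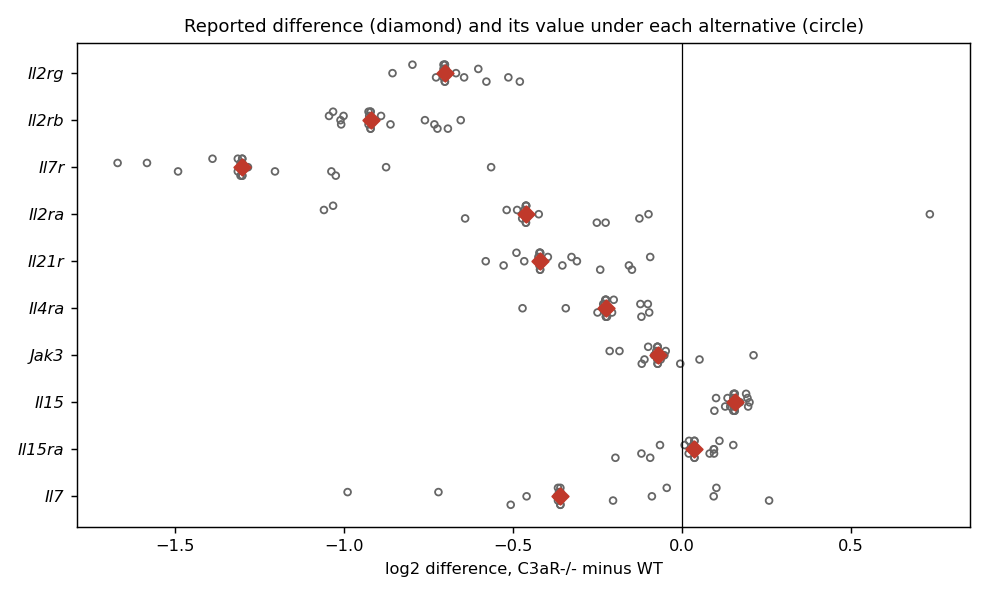
Log2 difference C3aR-/- minus WT of the 10 members as reported (diamond) and under each alternative processing of the same probe or the mean of probes (circles). Il2rb, Il2rg and Il7r lie below 0 under all 20 alternatives and Il15 above 0 under all 20, while Il2ra, Jak3, Il15ra and Il7 have circles on both sides of 0.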

How the data were processed

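Total RNA from renal cortex (3 C3aR-/- and 3 WT diabetic samples, grouped by title) was labelled with Cy3 from 0.2 µg, per the labels, and read on 1 slide in 1 scan. Agilent Feature Extraction 10.7.1.1 gave the deposited intensity values, background-subtracted and detrended per the file headers, on an mm9 grid of 62976 spots. The authors' deposited log2 table, with a median of 5.74 in every column and no stated normalization, was an alternative.

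Control and outlier-marked spots were left out, spots of 1 probe averaged, and log2 of the processed intensity taken minus the array's 75th percentile. Probes well above background on at least 3 arrays (34778) were kept, and the brightest probe stood for each gene. Differences were fitted with limma 3.58.1 in R 4.3.3, over all genes, and for the members' other probes over all kept probes. The fit was tested on simulated data with known changes.

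Members and lists were chosen with earlier results of these data known. Genes named are the members, C3ar1, the pathway's ligands and Il9r, pathway genes with an unadjusted p under 0.05 or among the 3 largest differences, and the nearest profiles. From marker lists, at most 2 a list were named for a small p. Other marker genes were named after their values were seen. A protein motif search was not run, since no protein sequences were used here. Alternatives were other scalings, background corrections, filters, probes, variance models and array weights, blocks for slide row or replicate number, and omission of samples. The number of arrays limits precision.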

Additional observations from a re-analysis of the deposited data

How the results depend on the processing

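Il2rb, Il2rg and Il7r read lower with an unadjusted p under 0.05 under all 19 alternatives with a test, and Il15 read higher under all 20. No alternative brought a gene past the adjusted threshold; with limma the genes at an unadjusted p under 0.05 numbered 1111, and 767 to 2115 over the alternatives. The median difference of the members was -0.17 with normexp, -0.14 with array weights and -0.17 without WT replicate 1 and C3aR-/- replicate 2 together, and -0.50 to -0.22 with 1 sample left out. Members with an unadjusted p under 0.05 numbered 3 to 5 with 1 sample left out, 5 without WT replicate 2, which adds Il4ra and Il21r. Whether same-numbered samples were paired is not stated in the labels. Correlations of their deviations were 0.13, 0.41 and -0.09, against -0.37 to 0.35 for samples with different numbers. With the replicate block, 4 members and 1596 of all genes had an unadjusted p under 0.05 in limma, and no gene passed adjusted. Il7r ranged from -1.67 to -0.57 and Il2rb from -1.05 to -0.66. Directions turned for Il7 (0.094 with array weights, 0.102 without WT replicate 1, 0.258 without both those arrays, and -0.721 to 0.102 with 1 sample left out), Il15ra (-0.12 with array weights, -0.094 without C3aR-/- replicate 2, -0.065 without WT replicate 1, -0.197 without both, and -0.094 to 0.111 with 1 left out), Il2ra (0.734 in slide row 2), Jak3 (0.212 in slide row 2, 0.052 without WT replicate 3, 0.056 on another probe, and -0.185 to 0.052 with 1 left out) and Il21r (0.232 on its other probe). The cause was not tested. Signals close to background limit Il2ra and Il7, whose differences were -0.10 and -0.09 with normexp.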
